A study of Mus musculus with 21 samples.

Results

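Cells of the mouse embryonic stem cell line E14Tg2a that had reached the group labelled CH+LIF HP were compared with cells of the group labelled 2i+LIF PO, at the level of all genes. E14Tg2a is a male line of 129 background, and in every group 1 allele of Rex1 (Zfp42) carries a short-lived green fluorescent reporter, GFPd2. The comparison used 6 of the 21 mRNA sequencing libraries of the series, 3 labelled CH+LIF HP and 3 labelled 2i+LIF PO, chosen by those labels alone. The other 15 libraries are 3 each of 2i+LIF LP, CH+LIF LP, LIF LP, 2i+LIF HP and LIF HP, and they entered the fit because all groups share 1 estimate of the spread.

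All groups descended from cells kept for 1 week in NDiff227 medium with 3 µM CHIR99021 and 1 µM PD0325901. Per the labels' protocol, drugs were then alternately supplied and withdrawn as the cells were passaged, using CH, PD and LIF. The labels do not define PO, LP and HP. The series text names a start without passage and periods of 1 and 2 months of culture, PO exists in 2i+LIF alone, and PO is therefore taken here as the start. Medium, time in culture and passage differ together between the groups, so their parts in any difference cannot be told apart. The file names also place PO in another sequencing run than the remaining libraries, which leaves run and group confounded as well. The replicates are numbered, but nothing says that they came from separate cultures, and p-values therefore measure only the spread between these libraries, which may be technical.

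As background, CHIR99021 inhibits GSK3 and so stabilises beta-catenin, PD0325901 inhibits MEK and so blocks ERK signalling, and LIF acts through STAT3. Together the inhibitors form the medium called 2i, which holds mouse embryonic stem cells close to the naive epiblast of the blastocyst, with high naive transcription factors, low DNA methylation and silent ERK target genes. The label CH+LIF names the GSK3 inhibitor and LIF without the MEK inhibitor. Targets of ERK, such as the Sprouty and dual-specificity phosphatase genes, are negative-feedback genes that ERK itself switches on.

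The libraries differed in depth and quality. Gene counts ran from 1184797 to 2084432 in CH+LIF HP and from 2998748 to 3783043 in PO, so a count of 0 allowed up to 1.43 to 2.29 CPM (counts relative to the TMM-scaled library size) in single CH+LIF HP libraries and up to 0.748 to 1.58 CPM in single PO libraries; these limits cover counting error only. Mitochondrial genes took 3.62 to 9.84% of gene counts in CH+LIF HP, 7.55 and 7.83% in PO replicates 2 and 3, and 39.1% in PO replicate 1, which stands apart. Short transcripts tended to be higher in CH+LIF HP: the median log2 fold change was 0.26 in the fifth of genes with the shortest transcripts and -0.30 in the fifth with the longest, against -0.08 over all genes. The part of transcript length and of mitochondrial reads in the results was not tested beyond the alternatives given. The stem cell label was met in all 6 libraries: Sox2 stood at 427 to 661 CPM, Klf5 at 1820 to 2805 CPM and Pou5f1 (Oct4) at 25.9 to 58.4 CPM.

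Of 10643 genes that passed the filter on low counts, 619 (5.82%) differed between CH+LIF HP and PO at an adjusted p below 0.05 in edgeR's quasi-likelihood test, 358 higher (3.36%) and 261 lower (2.45%). CPM did not overlap between the 3 and 3 libraries for 355 of the 358 and 248 of the 261, where 28.6% of all tested genes show no overlap. Genes called higher moved further, with a median change of 2.14 on the log2 scale and 191 genes at 4-fold or more; for genes called lower the median size was 1.84 and 107 reached 4-fold. Among the genes called, 133 (106 higher, 27 lower) passed in each of 6 further fits that left out 1 of the 6 libraries. The count ranged from 200 without CH+LIF HP replicate 1 to 649 without PO replicate 1, was 204 and 328 without CH+LIF HP replicates 2 and 3, and was 408 and 347 without PO replicates 2 and 3.

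**Figure D1:**
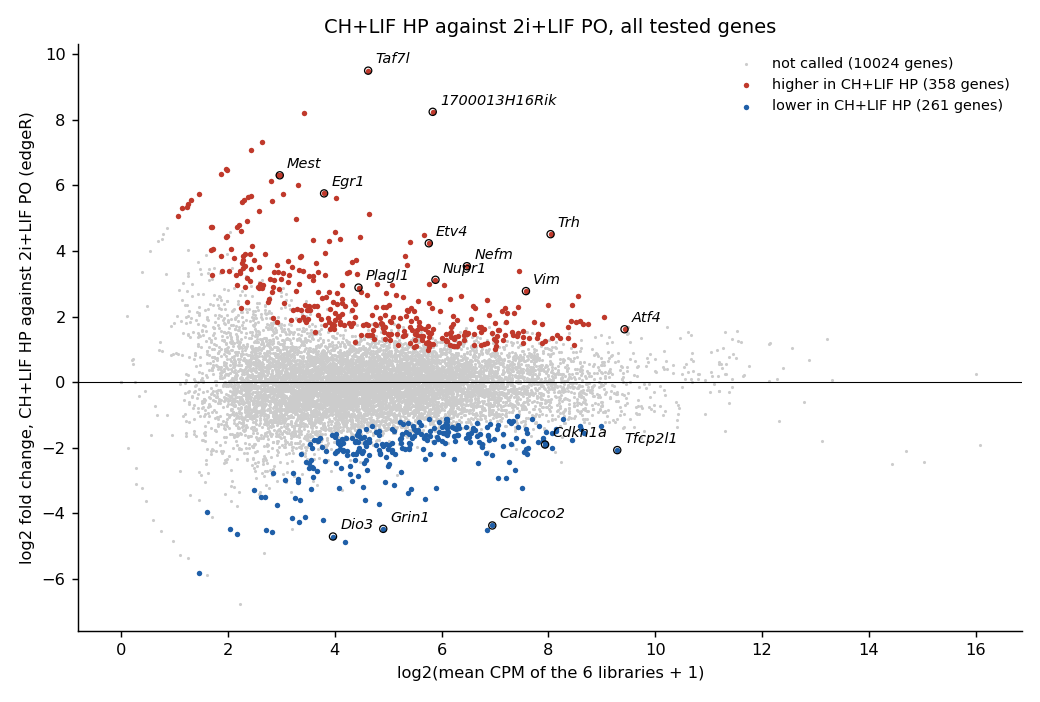
Each point is 1 of the 10643 tested genes; the x axis is the mean level of the 6 libraries as log2(CPM + 1) and the y axis is edgeR's log2 fold change of CH+LIF HP against 2i+LIF PO. The 358 genes called higher (red) and 261 called lower (blue) lie on both sides of 0, and Taf7l, at 9.50, is the highest of the points; fold changes of genes without PO counts depend on the prior count.

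The widest rises were in genes with few or no PO counts. Taf7l, a germline paralogue of a TFIID subunit, measured 50.6, 44.8 and 46.5 CPM in CH+LIF HP replicates 1 to 3 and had no count in any PO library, which makes it at least 163-fold higher against a floor of 3 counts over the PO group. The X-linked gene 1700013H16Rik measured 153.8, 117 and 64.0 CPM against 0, 0.261 and 0.499 CPM in PO (adjusted p = 1.66e-05 by edgeR). Kcnmb2, an auxiliary subunit of a calcium-activated potassium channel, was at 12.9 to 25.9 CPM and had no PO count, so it was at least 63.8-fold higher. No PO library overlapped a CH+LIF HP library for any of these. The remaining genes among the 10 widest rises were 4930502E18Rik, Ramp3, Hist2h3b, Tmem45a, Nxf2, Mest and Fam19a4, with adjusted p between 0.000375 and 0.00852 in edgeR.

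Among abundant genes the rises were smaller in fold but large in CPM. Trh, which encodes thyrotropin-releasing hormone, measured 602, 560 and 344 CPM in CH+LIF HP and 27.4, 12.6 and 26.2 CPM in PO, a log2 fold change of 4.51 (SE 0.66, adjusted p = 0.00027 by edgeR). Vim, the intermediate filament vimentin, measured 250, 292 and 455 CPM against 13.7, 53.9 and 76.0 CPM (log2 fold change 2.78, SE 0.48, adjusted p = 0.00129 by edgeR). H2afz, the histone variant H2A.Z, measured 810, 661 and 468 CPM against 45.9, 135 and 133 CPM (log2 fold change 2.62, SE 0.58, adjusted p = 0.00883 by edgeR). In all of these every CH+LIF HP library lay above every PO library. The 5 most abundant genes called higher were Atf4, the splicing factor Snrpd3, the arginine methyltransferase Prmt1, Swi5 and the neurofilament gene Nefl, with log2 fold changes of 1.61 to 1.98.

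The widest falls included Calcoco2, an autophagy receptor also called NDP52. It measured 9.08, 9.06 and 16.0 CPM in CH+LIF HP and 267, 229 and 205 CPM in PO, a log2 fold change of -4.37 (SE 0.76, adjusted p = 0.00129 by edgeR, and 0.0026 without PO replicate 1). Grin1, a subunit of the NMDA receptor, measured 0.649, 2.86 and 3.81 CPM against 84.9, 44.4 and 37.1 CPM (log2 fold change -4.47, SE 1.08, adjusted p = 0.0148 by edgeR), and it overlaps an antisense gene whose reads could not be separated. The groups did not overlap for either gene. Ttn, the giant muscle protein titin, was at 7.14 to 11.0 CPM in CH+LIF HP and at 573, 37.1 and 51.1 CPM in PO; its call rests on PO replicate 1, without which the edgeR adjusted p was 0.079. The same held for Gm33027, at 80.2 CPM in PO replicate 1 and 11.2 and 8.97 CPM in the other PO libraries (adjusted p = 0.0269 by edgeR, and 0.14 without PO replicate 1). The other 6 of the 10 widest falls were Dio3, Ntm, Padi2, Npr3, Adam11 and Dglucy.

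The most abundant genes called lower included Tfcp2l1, Cdc5l, Mphosph8 and Ywhag. PO replicate 1 was more than double the other PO libraries for Cdc5l and Mphosph8, and without it their adjusted p values were 0.24 and 0.14. For Ywhag, a 14-3-3 protein gene, it was the lowest PO library and the adjusted p without it was 0.0083, the only 1 of the 6 fits without a library in which Ywhag was called.

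About as many targets of ERK were called higher as were not, and none was called lower. Of 17 list genes 13 were tested, 7 rose and none fell, beside 3.36% of all tested genes called higher, and the median log2 fold change of the 13 was 2.04 beside -0.08 over all genes. Etv4, an ETS transcription factor, measured 96.7, 104 and 102 CPM in CH+LIF HP replicates and 4.75, 6.54 and 4.49 CPM in PO replicates, a log2 fold change of 4.24 (SE 0.42, adjusted p = 1.36e-06 by edgeR). The 3 CH+LIF HP libraries lay within 10% of each other and far above PO. Dusp6, the phosphatase that dephosphorylates ERK, measured 30.5, 40.5 and 40.4 CPM against 3.69, 2.61 and 2.24 CPM (log2 fold change 3.72, SE 0.70, adjusted p = 0.00281 by edgeR). Egr1, an immediate-early transcription factor, measured 14.9, 14.3 and 47.2 CPM against 0, 0.523 and 0.499 CPM (log2 fold change 5.76, SE 1.03, adjusted p = 0.00187 by edgeR). Again the groups did not overlap, although CH+LIF HP replicate 3 was about triple the other replicates for Egr1.

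Feedback inhibitors of the pathway differed among themselves. Spry4 measured 6.49, 4.29 and 15.2 CPM against 0, 0.261 and 0 CPM (adjusted p = 0.00351 by edgeR), and Spred1 measured 49.3, 51.5 and 43.4 CPM against 10.6, 7.84 and 11.2 CPM (adjusted p = 0.0372 by edgeR). Spry2, at 156.1 to 193 CPM in CH+LIF HP and 126 to 176 CPM in PO, had a log2 fold change of 0.21 (SE 0.39, adjusted p = 0.794 by edgeR). The ETS genes were split in the same way. Etv1 rose by a log2 fold change of 2.04 (SE 0.47, adjusted p = 0.0121 by edgeR), while Etv5, at 241 to 398 CPM in CH+LIF HP and 141.4 to 316 CPM in PO, overlapped and did not pass (log2 fold change 0.36, SE 0.35, adjusted p = 0.585 by edgeR). Phlda1 was the last of the 7 called. Leaving out 1 of the 6 libraries at a time gave 5 or 6 ERK targets called, and 6 without PO replicate 1; Spred1 was called in none of those 6 fits.

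Across the series Dusp6 was not high in every cultured group. Dusp6 averaged 38.0 CPM in CH+LIF LP and 27.6 CPM in LIF LP, close to the 37.1 CPM of CH+LIF HP, while 2i+LIF HP at 3.37 CPM and LIF HP at 0.411 CPM were close to the 2.85 CPM of PO. In 2i+LIF LP, whose label names the same medium as PO, Dusp6 measured 0.701, 34.4 and 26.3 CPM and Etv4 measured 135.3, 169 and 161 CPM, so libraries with the 2i label were also high. Against 2i+LIF HP, which the file names place in the same sequencing run as CH+LIF HP, Dusp6 was higher by a log2 fold change of 3.43 (SE 0.72, adjusted p = 0.00781 by edgeR) and Egr1 by 3.94 (SE 0.95, adjusted p = 0.0231 by edgeR). Etv4, at 68.8, 21.8 and 40.2 CPM in 2i+LIF HP, did not pass there (log2 fold change 1.20, SE 0.36, adjusted p = 0.0912 by edgeR). The label of LIF HP names no MEK inhibitor, and yet its Dusp6 and Egr1 were as low as in PO, so the levels do not follow the labelled media across all groups. Whether the labels of the HP and LP groups hold could not be checked from the counts, and the values of these groups are given by label only.

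**Figure D2:**
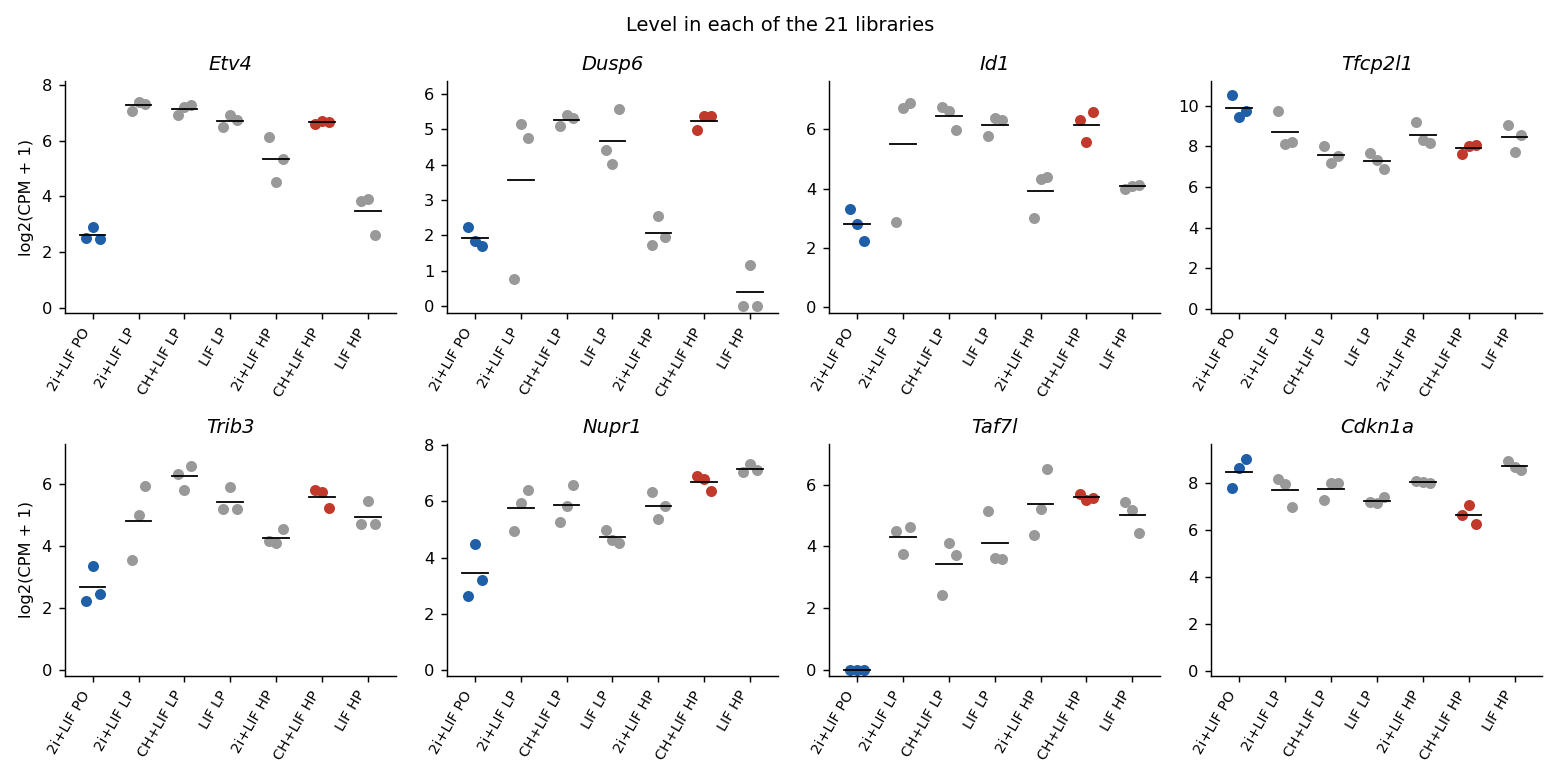
Levels of 8 genes as log2(CPM + 1) on the y axis in each of the 21 libraries, by group on the x axis; points are libraries, black lines are means of 3, blue marks 2i+LIF PO and red CH+LIF HP. Etv4, Dusp6, Id1, Trib3, Nupr1 and Taf7l are higher in all 3 CH+LIF HP libraries than in all 3 PO libraries, and Tfcp2l1 and Cdkn1a are lower. Dusp6 and Id1 are also high in CH+LIF LP, LIF LP and 2i+LIF LP replicates 2 and 3. Both are low in 2i+LIF LP replicate 1, 2i+LIF HP and LIF HP.

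BMP signalling, which uses SMAD1 and SMAD5 to switch on the Id genes and supports self-renewal alongside LIF, gave 2 called genes of 9 tested, both higher, beside 3.36% of all tested genes. Id1, an inhibitor of basic helix-loop-helix factors, measured 78.5, 46.3 and 95.2 CPM in CH+LIF HP and 8.97, 6.01 and 3.74 CPM in PO, a log2 fold change of 3.59 (SE 0.63, adjusted p = 0.00151 by edgeR). The ligand gene Bmp4 measured 374, 426 and 462 CPM against 157.2, 47.1 and 44.1 CPM (log2 fold change 2.36, SE 0.68, adjusted p = 0.04 by edgeR), with PO replicate 1 the highest PO library. Both genes separated the groups without overlap, and Bmp4 passed in 1 of the 6 fits without a library and had an adjusted p of 0.0524 by edgeR with the transcript length trend removed. Id3 was at 42.6 to 68.1 CPM against 4.22 to 18.4 CPM but did not pass (log2 fold change 2.02, SE 0.78, adjusted p = 0.12 by edgeR). The receptor gene Bmpr1a, at 42.8 to 50.6 CPM against 20.2 to 27.96 CPM, did not pass (adjusted p = 0.15 by edgeR).

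Naive pluripotency factors, the genes that 2i medium holds high, were called lower for 2 of 17 genes and higher for none, beside 2.45% of all genes called lower, with a median log2 fold change of -0.65. Tfcp2l1, a transcription factor downstream of LIF and STAT3, measured 197, 258 and 264 CPM in CH+LIF HP and 1477, 687 and 861 CPM in PO (log2 fold change -2.07, SE 0.45, adjusted p = 0.00834 by edgeR). Nr5a2, a nuclear receptor that can bind the Oct4 promoter, measured 80.5, 79.2 and 86.8 CPM against 384, 223 and 246 CPM (log2 fold change -1.79, SE 0.43, adjusted p = 0.015 by edgeR). All CH+LIF HP libraries lay below all PO libraries for both. Leaving out 1 library gave 0 to 4 calls, with 0 without CH+LIF HP replicate 1 and 4 without PO replicate 1.

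The reporter locus itself, Zfp42 (Rex1), was at 94.7, 100 and 117 CPM in CH+LIF HP and 217, 343 and 135 CPM in PO. It did not pass (log2 fold change -1.16, SE 0.35, adjusted p = 0.0505 by edgeR). Zfp42 was called lower under 8 of 17 alternatives and not called under 9. By edgeR its adjusted p was 0.0354 without PO replicate 3 and 0.0311 with the transcript length trend removed. Nanog likewise lay lower without overlap, at 197 to 244 CPM against 308 to 579 CPM, and did not pass (log2 fold change -1.06, SE 0.37, adjusted p = 0.0867 by edgeR, and 0.039 without PO replicate 1). Esrrb was at 157.01 to 218 CPM against 256 to 381 CPM (adjusted p = 0.144 by edgeR). The libraries of both groups overlapped for Klf4, at 312 to 382 CPM against 314 to 417 CPM, and for Klf5, at 1860 to 2646 CPM against 1820 to 2805 CPM, and neither passed.

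General pluripotency genes gave 2 rises and 1 fall of 9 tested, beside 3.36% and 2.45% of all tested genes. Dppa2 and Dppa4, which encode partner proteins that bind CpG-rich promoters, were the 2 that rose. Dppa2 measured 126, 105 and 72.4 CPM against 7.91, 30.6 and 27.7 CPM (log2 fold change 2.17, SE 0.46, adjusted p = 0.00677 by edgeR). Dppa4 measured 468, 239 and 276 CPM against 168, 109 and 78.8 CPM (log2 fold change 1.47, SE 0.38, adjusted p = 0.0206 by edgeR). Fgf4, the ligand through which embryonic stem cells stimulate their own ERK pathway, was lower at 86.3, 102 and 101 CPM against 272, 256 and 217 CPM (log2 fold change -1.37, SE 0.36, adjusted p = 0.0235 by edgeR). Dppa2 was called in all 6 fits without 1 library, Dppa4 in 3 and Fgf4 in 2 of them, and Dppa4 had an adjusted p of 0.0723 by edgeR once each library's transcript length trend was removed. Pou5f1 and Sox2 did not pass, with log2 fold changes of 0.70 (SE 0.40) and 0.29 (SE 0.34).

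None of 10 formative and primed epiblast genes tested passed, beside 5.82% of all tested genes called in either direction. Otx2 was at 15.2 to 29.2 CPM against 5.28 to 24.8 CPM, the de novo DNA methyltransferase gene Dnmt3b was at 36.7 to 44.9 CPM against 30.9 to 58.6 CPM, and Fgf5 stayed at 0 to 1.43 CPM in all 6 libraries. None of 14 Wnt targets, 12 LIF and STAT3 genes, 11 Nodal and activin genes or 11 DNA methylation genes passed in the same edgeR test, in which 2400 of the 10643 genes had an unadjusted p below 0.05. Notum, a secreted Wnt inhibitor and Wnt target, came nearest among the Wnt targets, at 2.595, 1.43 and 3.05 CPM against 24.3, 16.5 and 9.22 CPM (adjusted p = 0.0636 by edgeR). It was called lower under 6 of 17 alternatives, with an adjusted p of 0.0296 by edgeR with only the 6 libraries and 0.0159 by DESeq2. Axin2 was at 4.77 to 6.49 CPM against 5.23 to 14.8 CPM and overlapped. Without PO replicate 1, 1 Wnt target was called higher.

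ATF4, the transcription factor of the integrated stress response, is translated when eIF2alpha is phosphorylated and switches on amino acid synthesis and stress genes. Of 17 genes of its response tested, 9 rose and none fell, beside 3.36% of all tested genes called higher, and their median log2 fold change was 1.62 beside -0.08 over all genes. Atf4 itself measured 1128, 1019 and 956 CPM in CH+LIF HP and 419, 356 and 239 CPM in PO (log2 fold change 1.61, SE 0.37, adjusted p = 0.0121 by edgeR). Trib3, a pseudokinase that restrains ATF4, measured 54.5, 52.0 and 36.6 CPM against 3.69, 9.15 and 4.49 CPM (log2 fold change 3.00, SE 0.49, adjusted p = 0.000742 by edgeR). Nupr1, a small stress-induced chromatin protein, measured 120, 111 and 82.3 CPM against 5.28, 21.4 and 8.23 CPM (log2 fold change 3.12, SE 0.47, adjusted p = 0.000314 by edgeR). The groups did not overlap for these genes.

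The transcription factors Ddit3 (CHOP), Atf3 and Atf5 were also called higher, with log2 fold changes of 2.35 (SE 0.46), 3.15 (SE 0.69) and 2.02 (SE 0.48). So were Vldlr, a lipoprotein receptor that had 1 PO count in all, Chac1, which degrades glutathione, and Psat1 of serine synthesis. Other genes of the response did not pass, among them the asparagine synthetase gene Asns, at 266 to 358 CPM against 172 to 520 CPM, and Ddit4, at 21.3 to 54.5 CPM against 5.28 to 60.1 CPM. In the fits without 1 of the 6 libraries the calls ranged from 5 to 8, with 7 without PO replicate 1 and 5 without CH+LIF HP replicate 1. Ddit3, Atf5 and Psat1 illustrate the range, called in 6, 5 and 1 of those 6 fits. Compared across groups, Atf4 averaged 614 to 1229.9 CPM in the 5 other cultured groups, above the 338 CPM of PO in each.

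**Figure D3:**
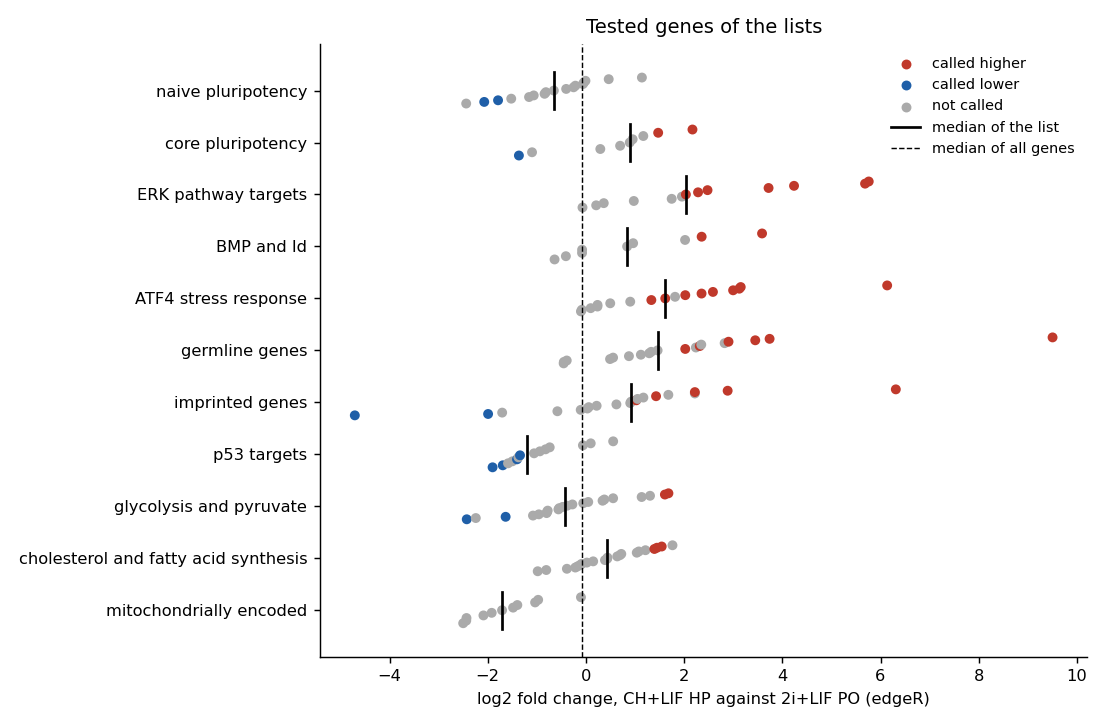
Each point is 1 tested gene of a list (y axis) at its edgeR log2 fold change of CH+LIF HP against 2i+LIF PO (x axis), red if called higher, blue if called lower and grey otherwise; black bars are list medians and the dashed line is the median of all genes. The ERK pathway targets, with 7 of 13 genes called higher, and the ATF4 stress response, with 9 of 17, lie mostly to the right, and the p53 targets, with 4 of 14 called lower, mostly to the left.

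Germline genes are silenced in somatic cells by methylation of CpG-rich promoters and by repressors that include E2F6 and the MGA and MAX complex, which bind E2F and E-box motifs. Promoters of 3 of the germline genes called higher are shown because each holds an exact E-box match: the 250 bases upstream of the RefSeq transcription start on GRCm38.p6, in lower case, with exact matches to the E-box CACGTG or the E2F motif TCCCGC (or its reverse complement GCGGGA) in capitals. They lie at chrX:134476491-134476740 on the minus strand (Taf7l), chr13:112652311-112652560 on the minus strand (Ddx4) and chr3:40708621-40708870 on the plus strand (Slc25a31).
Taf7l: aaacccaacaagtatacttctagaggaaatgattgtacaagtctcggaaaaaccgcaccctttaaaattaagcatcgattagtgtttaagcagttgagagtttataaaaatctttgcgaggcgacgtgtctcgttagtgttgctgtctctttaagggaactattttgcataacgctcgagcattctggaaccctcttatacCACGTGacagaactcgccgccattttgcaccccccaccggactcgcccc
Ddx4: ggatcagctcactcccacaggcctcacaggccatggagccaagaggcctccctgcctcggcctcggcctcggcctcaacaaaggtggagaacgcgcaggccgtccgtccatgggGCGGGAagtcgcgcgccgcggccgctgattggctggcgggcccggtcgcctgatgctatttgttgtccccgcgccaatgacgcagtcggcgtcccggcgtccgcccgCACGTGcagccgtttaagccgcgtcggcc
Slc25a31: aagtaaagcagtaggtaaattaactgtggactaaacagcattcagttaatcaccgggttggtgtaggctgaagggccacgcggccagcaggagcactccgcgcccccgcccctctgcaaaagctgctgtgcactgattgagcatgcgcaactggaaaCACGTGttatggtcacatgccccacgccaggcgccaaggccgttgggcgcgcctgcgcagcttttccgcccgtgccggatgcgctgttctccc

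The matched E-box began 49 bases before the start in Taf7l, 29 bases before it in Ddx4 and 93 bases before it in Slc25a31, and the Ddx4 stretch also held an E2F match 136 bases upstream. Over windows of 300 bases, from 250 before to 50 after the start, and counting either strand, 7.15% of 32851 promoter windows in the RefSeq table held CACGTG and 20% held TCCCGC. All 6 germline genes called higher were matched in that table; 5 of the 6 held an E-box and 2 of the 6 an E2F match. Among 11 matched germline genes that were tested and not called, 5 held an E-box and 6 an E2F match. Windows of the 6 called genes had 17 to 38 CpG dinucleotides, and those of the 11 others had 10 to 29, beside a median of 7 over all windows. A match describes the letters only.

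Of 24 germline list genes 19 were tested, 6 rose and none fell, beside 3.36% of all tested genes called higher, and the median log2 fold change of the 19 was 1.46. After Taf7l came Mov10l1, an RNA helicase of the piRNA pathway, at 12.3, 6.202 and 6.85 CPM against 1.58, 0.261 and 0.249 CPM (adjusted p = 0.0235 by edgeR), and Slc25a31, a testis ADP/ATP carrier, at 11.0, 4.29 and 9.14 CPM against 0, 1.05 and 0.748 CPM (adjusted p = 0.00775 by edgeR). Dazl, an RNA-binding protein of germ cells, measured 134, 106 and 114 CPM against 15.3, 48.9 and 21.9 CPM (log2 fold change 2.02, SE 0.52, adjusted p = 0.021 by edgeR). Ddx4, the germ cell helicase Vasa, was low throughout, at 6.09 to 8.43 CPM against 0 to 1.99 CPM (adjusted p = 0.0458 by edgeR). Fkbp6, a co-chaperone of the piRNA pathway, measured 202, 128 and 145.5 CPM against 3.69, 53.3 and 36.4 CPM (adjusted p = 0.0169 by edgeR). All 6 genes separated the groups.

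The other 13 germline genes tested did not pass. Tex19.1, a gene of placenta, germ cells and naive stem cells, was at 141.7 to 230 CPM against 76.0 to 361 CPM. Hormad1, Tex11 and Tex101 were higher without overlap but had adjusted p of 0.0604, 0.0672 and 0.0684 in edgeR. The number called was 6 without PO replicate 1 and 2, 3 and 4 without CH+LIF HP replicates 1, 2 and 3. Outside the pair compared, Taf7l ranged from 4.36 to 90.1 CPM in the 15 libraries of the other cultured groups, and none of these was at 0. The 15 listed genes of the two-cell-like state gave no tested gene, and their summed level reached 3.05 to 9.73 CPM in CH+LIF HP and 0 to 2.11 CPM in PO.

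Imprinted genes, expressed from 1 parental allele under the control of differentially methylated regions, moved in both directions. Of 20 tested, 5 were higher and 2 lower, beside 3.36% and 2.45% of all tested genes, with a median log2 fold change of 0.91. Mest, a paternally expressed gene, measured 7.14, 23.4 and 9.90 CPM in CH+LIF HP and 0.528, 0 and 0 CPM in PO (adjusted p = 0.000375 by edgeR); its reads cannot be separated from those of the overlapping gene Copg2 where strand is unknown. Plagl1, a zinc finger transcription factor, measured 41.5, 31.96 and 36.6 CPM against 3.69, 5.75 and 4.99 CPM (log2 fold change 2.89, SE 0.58, adjusted p = 0.00511 by edgeR). Grb10, an adaptor that dampens insulin signalling, measured 22.1, 25.3 and 22.1 CPM against 4.22, 4.44 and 5.98 CPM (log2 fold change 2.22, SE 0.53, adjusted p = 0.0149 by edgeR). The groups did not overlap for any of these. Peg3 and Gnas completed the 5, with log2 fold changes of 1.43 (SE 0.43) and 1.02 (SE 0.29), and neither passed in any fit without 1 of the 6 libraries.

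In the other direction, Dio3, which inactivates thyroid hormone and lies in the Dlk1-Dio3 imprinted cluster, measured 0.649, 0.954 and 1.52 CPM in CH+LIF HP and 24.3, 36.9 and 23.4 CPM in PO (log2 fold change -4.71, SE 0.95, adjusted p = 0.00511 by edgeR). Meg3, the maternally expressed long RNA of the same cluster, was at 729, 911 and 1647 CPM against 517, 374 and 136 CPM and did not pass (log2 fold change 1.68, SE 0.64, adjusted p = 0.116 by edgeR). Slc38a4, an amino acid transporter, measured 20.1, 11.4 and 13.7 CPM against 38.5, 43.4 and 97.2 CPM (log2 fold change -1.99, SE 0.52, adjusted p = 0.0232 by edgeR). CH+LIF HP lay below PO in every library for Dio3 and Slc38a4 and above it for Meg3. Without 1 of the 6 libraries, 2 or 3 imprinted genes were called higher and 1 or 2 lower; without PO replicate 1 the counts were 3 and 2.

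Targets of p53, the tumour suppressor that halts the cell cycle and starts apoptosis after DNA damage, were called lower for 4 of 14 genes and higher for none, beside 2.45% of all tested genes called lower, with a median log2 fold change of -1.20. Cdkn1a, the cyclin-dependent kinase inhibitor p21, measured 98.6, 135 and 75.4 CPM in CH+LIF HP and 224, 401 and 530 CPM in PO (log2 fold change -1.90, SE 0.37, adjusted p = 0.00346 by edgeR). Mdm2, the ubiquitin ligase that degrades p53, measured 49.96, 66.8 and 39.6 CPM against 89.2, 186 and 140 CPM (log2 fold change -1.40, SE 0.35, adjusted p = 0.0173 by edgeR). Trp53inp1, which promotes p53 activity, measured 35.7, 42.5 and 31.99 CPM against 98.1, 76.9 and 105 CPM (adjusted p = 0.0197 by edgeR). In all of these the groups were apart.

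Eda2r, a receptor gene, was the remaining p53 target called, at 2.595 to 11.0 CPM against 17.4 to 21.2 CPM (adjusted p = 0.0412 by edgeR). Ccng1 and Zmat3 were lower without overlap and did not pass, at adjusted p of 0.0854 and 0.104 in edgeR. The gene for p53 itself, Trp53, was at 21.5 to 54.8 CPM against 178, 84.7 and 45.9 CPM, and its log2 fold change of -1.50 (SE 0.58) did not pass. The proapoptotic target Bax had a positive value, 0.55 (SE 0.57), that did not pass either. Calls numbered 1 to 6 in the fits without 1 library and 6 without PO replicate 1, and Cdkn1a was called in all 6 of these fits. Against 2i+LIF HP, in the same run, p53 targets went both ways. Cdkn1a was lower there too, by a log2 fold change of -1.38 (SE 0.36, adjusted p = 0.0426 by edgeR). Ccng1, at 36.3, 64.4 and 57.1 CPM in CH+LIF HP and 8.37, 14.2 and 13.4 CPM in 2i+LIF HP, was higher by 2.15 (SE 0.41, adjusted p = 0.00347 by edgeR), and Eda2r was higher by 2.73 (SE 0.72, adjusted p = 0.0416 by edgeR). Mdm2 and Trp53inp1 did not pass there, with log2 fold changes of -0.0047 (SE 0.35) and 0.20 (SE 0.35).

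Most tested genes of each metabolic list were not called, as was so over all tested genes. In glycolysis and pyruvate metabolism 2 of 22 genes rose and 2 fell, beside 3.36% and 2.45% of all tested genes: Pgam1 and the pyruvate dehydrogenase kinase Pdk1 had log2 fold changes of 1.61 (SE 0.42) and 1.68 (SE 0.37), and Hk1 and Gapdh had -1.64 (SE 0.41) and -2.43 (SE 0.65). Gapdh measured 35.7, 59.6 and 48.0 CPM in CH+LIF HP and 49.1, 289 and 433 CPM in PO, so PO replicate 1 fell within the CH+LIF HP range. Without 1 of the 6 libraries, 0 to 2 genes of the glycolysis list were called higher and 0 to 3 lower, with 1 and 3 without PO replicate 1. Of 25 nuclear oxidative phosphorylation genes 2 were called, both higher, beside 3.36% of all tested genes called higher. They were the complex I subunits Ndufa2 and Ndufv1, called in 4 and 6 of the 6 fits without 1 library. In this list 2 genes were called higher and 1 lower without PO replicate 1, and 1 higher without PO replicate 3. None of 11 mitochondrially encoded genes passed, although all 11 had negative values, with a median log2 fold change of -1.71. That median rests on PO replicate 1 and was -0.0083 without it. Their summed level was 36133 to 88747 CPM in CH+LIF HP and 65114 to 618490 CPM in PO.

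Cholesterol and fatty acid synthesis gave 3 rises among 22 genes, beside 3.36% of all tested genes. The number was 1 without CH+LIF HP replicate 3, 2 without PO replicate 2, PO replicate 3 or CH+LIF HP replicate 2, and 3 without either of the other two. Cyp51, lanosterol demethylase, measured 221, 253 and 228 CPM in CH+LIF HP and 63.8, 101 and 92.5 CPM in PO (log2 fold change 1.45, SE 0.35, adjusted p = 0.0146 by edgeR), and Fdps and Mvd of the mevalonate pathway had 1.39 (SE 0.32) and 1.54 (SE 0.36). In proliferation, 1 of 21 replication and mitosis genes was called, higher, beside 3.36% of all tested genes. This was Kif11, the mitotic kinesin Eg5, at 88.3 to 99.3 CPM against 34.0 to 42.2 CPM (adjusted p = 0.0149 by edgeR). Kif11 was called in 4 of the 6 fits without 1 library, and without PO replicate 2 the list had 0 calls. Among the 9 tested subunits of PRC2, the H3K27 methyltransferase complex, Aebp2 alone was called, lower, beside 2.45% of all tested genes, and it did not pass without PO replicate 1 (adjusted p = 0.19 by edgeR); it was called in 2 of the 6 fits without 1 library. With the transcript length trend removed, Mvd and Aebp2 missed the threshold, each at an adjusted p of 0.051 by edgeR.

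Markers of other cell types were mostly at or near 0. In the primitive endoderm list Sox7 and Foxa2 had no count in any of the 6 libraries, Gata6, Gata4 and Sox17 stayed at or below 3.34 CPM, and the summed level, almost all of it Sparc, was 556 to 639 CPM in CH+LIF HP and 431 to 642 CPM in PO. Mesendoderm markers summed to 15.3 to 27.3 CPM in CH+LIF HP and 26.7 to 39.4 CPM in PO, with Mesp1 at 0 throughout. Fibroblast markers summed to 16.9 to 28.1 CPM and 23.3 to 34.4 CPM, with Postn and Twist2 at 0. None of the 5, 5 and 3 genes tested in these lists passed, beside 5.82% of all tested genes called; the remaining genes were below the filter on low counts. The trophoblast list summed to 54.9 to 80.7 CPM in CH+LIF HP and 168 to 218 CPM in PO, and Tfap2c alone of 7 tested genes was called, lower, beside 2.45% of all tested genes, at 29.6 to 35.0 CPM against 62.3 to 114 CPM. It was called in 1 of the 6 fits without 1 library, the fit without PO replicate 1. Elf5 was at 0 throughout.

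The neural list differed. Its summed level was 846 to 864 CPM in CH+LIF HP and 132 to 369 CPM in PO, and 3 of 8 tested genes rose, beside 3.36% of all tested genes. Nefm, the medium neurofilament, measured 155.7, 169 and 159 CPM against 23.2, 5.23 and 14.2 CPM (log2 fold change 3.54, SE 0.47, adjusted p = 5.78e-05 by edgeR). Nefl, the light neurofilament, measured 606, 598 and 618 CPM against 303, 52.8 and 143.3 CPM (log2 fold change 1.87, SE 0.43, adjusted p = 0.0117 by edgeR), and the annotation has both genes overlapping. Sox11, a SoxC transcription factor, measured 23.4, 17.2 and 22.8 CPM against 0, 0 and 2.49 CPM (log2 fold change 4.35, SE 0.80, adjusted p = 0.00241 by edgeR). Every CH+LIF HP library exceeded every PO library in all 3 genes. The neural progenitor factor Neurog2 had no count in the 6 libraries, Sox1 was at 3.89 to 10.7 CPM against 4.22 to 6.54 CPM, and Tubb3 was at 39.6 to 42.6 CPM against 8.97 to 55.2 CPM.

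X-linked genes were higher as a group in CH+LIF HP. Of 368 tested genes on the X chromosome, 42 (11.4%) were called higher and 5 (1.36%) lower, where 3.06% and 2.5% of 10254 autosomal genes were; on single autosomes the share called higher ran from 1.54% (chromosome 4) to 5.01% (chromosome 6). The median of X-linked genes less that of autosomal genes, on gene-centred log2 CPM, was 0.198, 0.118 and 0.068 in CH+LIF HP replicates 1 to 3 and -0.353, -0.321 and -0.283 in PO replicates 1 to 3. The difference was 0.45 on the log2 scale (SE 0.06, limma adjusted p = 5.76e-06 over the chromosomes), and no other chromosome passed. The 321 X-linked genes that were not called had a median log2 fold change of 0.25, beside -0.09 for all autosomal genes. The difference was 0.41 to 0.48 without any 1 of the 6 libraries.

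Values of PO stood apart from those of all other groups here. The 15 libraries of the other cultured groups lay between -0.13 and 0.17, so the 3 PO libraries were below all 18 others, which the file names place in another run; run and culture cannot be told apart. Xist, the long RNA that coats an inactive X chromosome, was not tested, and it stood at 0 to 1.06 CPM in the 6 libraries of this male line.

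**Figure D4:**
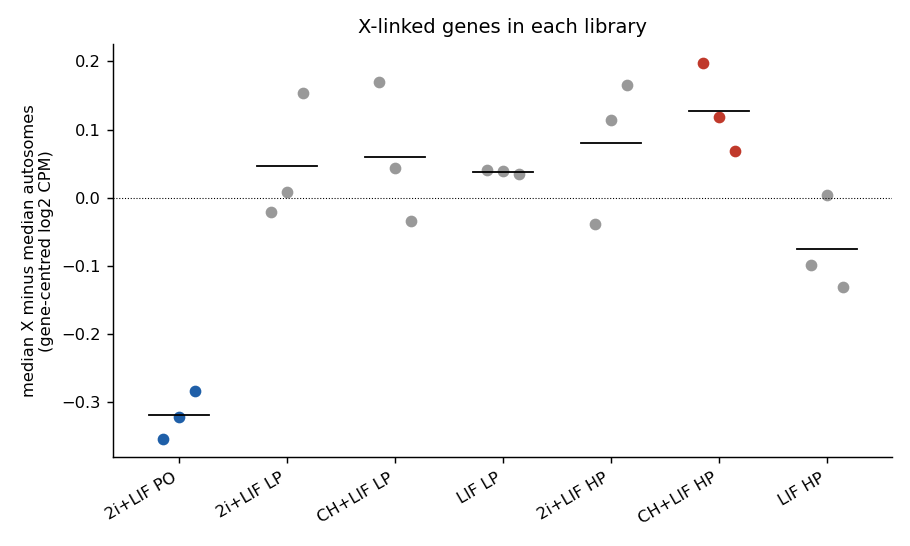
The median of X-linked genes less the median of autosomal genes, on gene-centred log2 CPM (y axis), in each of the 21 libraries by group (x axis); points are libraries and black lines are means of 3. The 3 PO libraries (blue) sit between -0.353 and -0.283 and the 3 CH+LIF HP libraries (red) between 0.068 and 0.198.

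Comparisons within 1 run gave far fewer calls. Against CH+LIF LP, the same medium label, 1 of 10643 genes (0.0094%) was called by edgeR, 571 had an unadjusted p below 0.05, and DESeq2 called 14. That gene was Crxos, a homeobox gene of preimplantation embryos, at 158.3, 113 and 73.9 CPM in CH+LIF HP and 9.69, 16.9 and 12.9 CPM in CH+LIF LP (log2 fold change 3.13, SE 0.47, adjusted p = 0.00561 by edgeR). It was not called in edgeR without any 1 of the 3 CH+LIF LP libraries or without CH+LIF HP replicate 1, and its adjusted p reached 0.201. Its CH+LIF HP level was nearer to PO, at 38.5, 92.6 and 81.5 CPM, from which it did not differ beyond the spread (adjusted p = 0.343 by edgeR). Some of the genes that separated CH+LIF HP from PO had values near CH+LIF LP. Etv4 differed from it by a log2 fold change of -0.49 (SE 0.35), Dusp6 by -0.03 (SE 0.59) and Id1 by -0.27 (SE 0.55), none of which passed. Others lay further from it, also without passing: Plagl1 was at 41.5, 31.96 and 36.6 CPM against 5.33, 6.05 and 10.6 CPM (log2 fold change 2.34, SE 0.59, adjusted p = 0.273 by edgeR), and Taf7l was at 4.36, 16.3 and 12.2 CPM in CH+LIF LP (log2 fold change 2.13, SE 0.56, adjusted p = 0.363 by edgeR). A p that misses the threshold does not show that the groups are alike.

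Against 2i+LIF HP, 215 genes (2.02%) were called, 117 higher (1.1%) and 98 lower (0.921%). The 3 widest rises were Adam23, at 50.6, 116 and 118 CPM in CH+LIF HP and at 0 in all 3 2i+LIF HP libraries (adjusted p = 5.42e-05 by edgeR), Trf, the iron carrier transferrin, at 21.4 ± 14.0 CPM (SD, n = 3) against 0, and Zfp423, at 14.5 ± 6.19 CPM (SD, n = 3) against 0. The 3 widest falls, Dnase2b, Cyp2c70 and Osbp2, had no count in CH+LIF HP and averaged 41.7 ± 34.6, 37.9 ± 24.4 and 36.9 ± 22.1 CPM (SD, n = 3) in 2i+LIF HP. Dnase2b and Cyp2c70 had no count in PO either. Id1 was higher than in 2i+LIF HP by a log2 fold change of 2.28 (SE 0.60, adjusted p = 0.042 by edgeR), and Taf7l, at 19.5, 36.5 and 90.1 CPM there, did not differ beyond the spread (log2 fold change -0.02, SE 0.52).

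Against the mean of the other 5 cultured groups, 8 genes (0.0752%) were called by edgeR, all higher, among them Id3, Adam23, Pglyrp1, 1700013H16Rik, Trh, Nefm and Fstl1. The BMP target Id3 had CH+LIF HP libraries above all 18 other libraries, PO included, at 42.6 CPM or more against 31.9 CPM or less.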

How the data were processed

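mRNA sequencing counts of 21 libraries in 7 groups of 3 were used, with groups taken from the labels. For each library the authors deposited raw whole-number counts of 31053 Ensembl gene IDs and 5 closing summary entries, and the latter were left out. In the 6 libraries compared, 47.4 to 62.0% of all entries were gene counts. Per the submitters' processing notes, bcl2fastq, STAR 2.6.0a, HTSeq and mm10 were used; settings, strand, annotation and filters are not given in the sources used here. Reads of genes that overlap another gene, or have near-identical copies, are therefore uncertain. GENCODE M21 (GRCm38) gave symbols and positions for 31011 of the IDs.

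All libraries entered 1 edgeR 4.0.16 quasi-likelihood fit (R 4.3.3) with TMM scaling, filterByExpr and 14 residual degrees of freedom, two-sided, with Benjamini-Hochberg adjustment over all tested genes and a threshold of 0.05. SE is the absolute log2 fold change divided by the square root of F. CPM used TMM-scaled library sizes. Bounds used 3 counts over the pooled group without TMM. Chromosome medians were tested with limma 3.58.1.

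Named genes are list genes, the 10 widest rises and falls against PO (3 for the other comparisons) among called genes of at least 5 CPM without overlap, and the 5 most abundant called each way; a few named by this rule are not reported here. The 29 lists hold 439 distinct genes, 350 of them tested, of which 44 were called higher and 13 lower. Members and lists were chosen with earlier results of these data known. Alternatives were DESeq2 1.42.0, its size factors in edgeR, no filter, thinning to 1132126 counts, only the groups compared, a replicate block, no mitochondrial genes or Gm42418, limma-voom with quality weights, libraries left out, and, added after seeing the data, removal of each library's transcript length trend. The steps were tested on simulated counts. Promoter sequences came from RefSeq on GRCm38.p6.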

Additional observations from a re-analysis of the deposited data

Results flagged for a closer look

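Set against the mean of the other 5 cultured groups rather than PO, 8 of 10643 genes (0.0752%) were called in CH+LIF HP by edgeR, all higher, which means that their change from PO differed from the average change of those groups by a test of the difference itself; 518 genes had an unadjusted p below 0.05 there. Id3, a BMP target, differed by a log2 fold change of 3.10 (SE 0.53, adjusted p = 0.0102 by edgeR). Its CH+LIF HP libraries, at 68.1, 51.0 and 42.6 CPM, were above all 18 other libraries, the next of which was at 31.9 CPM in CH+LIF LP. Fstl1, which encodes a secreted glycoprotein, differed by 1.51 (SE 0.30), with 222, 193 and 168 CPM against at most 172 CPM elsewhere. Trh differed by 2.05 (SE 0.39), and its 344 CPM in replicate 3 lay below CH+LIF LP libraries at 459 and 506 CPM.

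Another 4 of the genes overlapped with at least 1 other group, library by library. Nefm differed by 1.55 (SE 0.30) and 1700013H16Rik by 2.24 (SE 0.43), but both were higher in 2i+LIF HP, at means of 300.2 and 142.7 CPM. Adam23 differed by 2.99 (SE 0.49) and Pglyrp1 by 2.92 (SE 0.45); each had a group at 0, so the fitted value depends on the prior count. Adam23 averaged 197 CPM in LIF LP against 95.02 CPM in CH+LIF HP, and Pglyrp1 46.5 CPM in 2i+LIF HP against 38.7 CPM. Adjusted p for the 8 genes ran from 0.0102 to 0.0409 in the fit described and up to 0.581 over its 12 alternatives.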

How the results depend on the processing

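The 619 calls against PO became 1085 with DESeq2, 2854 with limma-voom, 925 without the filter (457 higher, 468 lower) and 57 with the replicate block on only 6 libraries; 200 to 649 were called without 1 of the 6 libraries, and 1095 without 2i+LIF LP replicate 1, which stands apart. The replicate block on 21 libraries gave 774. Deviations of same-numbered CH+LIF HP and PO libraries correlated at r of -0.164, 0.107 and -0.133, and those of differently numbered pairs at -0.251 to 0.242. These values cannot decide whether the numbers mark a shared origin, since they cover only these groups. Size factors (623), thinning (499), only the 6 libraries (418), no mitochondrial genes (625) and removal of the length trend (699) stayed within 1.5 times.

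Against CH+LIF LP the 1 call became 14 with DESeq2, 21 without the filter, 2 with thinning, 3 with the replicate block, 66 with limma-voom, 2 without the length trend and 0 to 3 with libraries left out. Against 2i+LIF HP the 215 became 340 with DESeq2, 354 without the filter, 436 with limma-voom and 99 to 361 with libraries left out. Against the other 5 cultured groups the 0.0752% called became 0.122% with DESeq2, 0.211% without the filter, 1.39% with limma-voom and 0 to 0.145% with libraries left out. Of tested list genes 16.3% were called, 4.27% with the replicate block on 6 libraries, 41.4% with limma-voom and 8.45 to 23.4% with libraries left out. Chromosomes called rose from 1 to 2 with only the 6 libraries (chromosome 3 added) and without the length trend (chromosome 4 added). Of the named genes' alternative values, 2050 kept their call status, 291 lost it, 70 gained it and none changed direction; genes named only by overlapping levels were not followed. The depth of CH+LIF HP leaves genes below about 2.29 CPM at the limit of a count of 0 in its smallest library.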

Other observations

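Members of several X-linked families of testis and placenta genes, chosen after their values were seen, were called higher against PO. Xlr3a, of the Xlr family expressed in germ and lymphoid cells, measured 98.0, 91.1 and 49.5 CPM in CH+LIF HP and 0.528, 7.58 and 3.24 CPM in PO (log2 fold change 4.27, SE 0.50, adjusted p = 1.42e-05 by edgeR). All 5 tested genes of the 10 Xlr genes in the annotation were called higher, beside 11.4% of tested X-linked genes. Of 34 Rhox homeobox genes 6 were tested and 4 called higher, Rhox1, Rhox6, Rhox9 and Rhox13, with log2 fold changes of 2.45 to 3.36, while the abundant Rhox5 did not pass (385 to 459 CPM against 72.3, 409 and 315 CPM) and neither did Rhox2a (adjusted p = 0.1735 by edgeR). Rhox1 was called in 1 of the 6 fits without 1 library, and its adjusted p was 0.135 by edgeR with the transcript length trend removed. Of 4 X-linked Nxf and Nxt genes of RNA export 3 were tested, and Nxf2, Nxf3 and Nxt2 were called higher. Nxf2, Nxt2 and Nxf3 were called in 6, 4 and 3 of the 6 fits without 1 library. Xlr was called in 3 of those fits, and Xlr3a, Xlr3c, Xlr4b and Xlr4c in all 6. Several Xlr genes are near-identical copies, so the split of reads between them is uncertain.

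Ddx3y, a Y-linked RNA helicase also chosen after its values were seen, measured 122, 133 and 168 CPM in CH+LIF HP and 20.0, 24.6 and 22.7 CPM in PO (log2 fold change 2.64, SE 0.41, adjusted p = 0.000379 by edgeR). It ranged from 40.4 to 335 CPM in the 15 libraries of the other cultured groups, all above PO.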
